A study of Mus musculus with 24 samples.

Results

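The genes described here encode the proteins of the mitochondrial ribosome and carry symbols of the form Mrpl (large subunit) or Mrps (small subunit) followed by a number. A gene was a member when it was protein-coding and had at least 10 reads in at least 4 of the 24 heart libraries. Of 78 such symbols in the mouse annotation, 77 had a row in the count table and 76 met the read minimum, out of 16318 genes that met it in the whole series. Mrpl53 had 22 reads over all libraries and was not a member, and Mrpl33 was not analysed here because its annotated identifier matched no row. The 76 members comprised 49 proteins of the large subunit, 26 of the small subunit and Mrps36.

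The libraries came from hearts of wild type Balb/c mice (BALB/cAnNCrl in the study's methods), male and immunized as young adults. Experimental autoimmune myocarditis (EAM) was induced with 100 μg of a peptide of the cardiac alpha-myosin heavy chain in supplemented complete Freund's adjuvant on day 0 and day 7, with pertussis toxin on day 0. Control mice received the same adjuvant and pertussis toxin with PBS in place of the peptide, so that all 6 groups carried the adjuvant and the toxin. Hearts were collected on day 10 (D10), day 15 (D15) and day 21 (D21), with 4 control and 4 EAM hearts on each day, 1 library per heart. EAM hearts for RNA were selected, as far as possible, for the presence of inflammation, so the EAM groups cannot be taken as a random sample of immunized mice. At D10, however, the paper found neither raised heart leukocytes nor raised cardiac troponin I in any EAM mouse. The labels do not say whether the hearts came from separate cages or experiments, and p-values measure the spread between these hearts only.

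Mitochondria translate a small set of messages of their own, all for subunits of the respiratory chain and ATP synthase, on a ribosome whose 2 large RNAs are encoded by mitochondrial DNA and whose proteins are all encoded in the nucleus and imported. Part of these proteins have counterparts in bacterial ribosomes and part are found only in mitochondria. The heart, which lives on oxidative phosphorylation, depends on this machinery, and inherited defects of several members cause cardiomyopathy in humans.

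Counts of reads assigned to genes summed to between 15814863 and 24980864 per library. Members had between 289 and 5086 reads in any library. All 12 cardiomyocyte markers and all 6 leukocyte markers were detected in every group. Atrial markers set hearts apart both within and between groups. The summed level of 4 atrial genes (Nppa, Myl7, Myl4, Sln) was 209 to 506 CPM (read counts scaled to library size, with TMM factors) in D10 control hearts and 239.9 in D15 control heart 4. It was 1670 to 2572 CPM in the other D15 and D21 control hearts, and in EAM hearts 576 to 1865 CPM at D10, 515 to 1620.0 at D15 and 55.6 to 180.3 at D21. EAM hearts thus lay above all controls of their day at D10 and below them all at D21. The D21 EAM libraries also carried a library code unlike that of all other libraries, so that this code, the low atrial content and EAM at D21 cannot be told apart. D10 EAM heart 1 had a leukocyte marker sum of 1134 CPM against 194 to 412 in the other D10 EAM hearts.

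The members were steadily expressed in control hearts. Mean levels over the 12 control hearts ran from 21.8 CPM (Mrps18b) to 241 CPM (Mrpl42), with a median of 53.0. The coefficient of variation between control hearts had a median of 6.90% over the members, and 4 members exceeded 10%, namely Mrps6 (19.8%), Mrps33 (18.9%), Mrps36 (11.7%) and Mrps18a (10.4%). Per kilobase of the principal annotated transcript, the highest levels in control hearts were those of Mrpl42 (362 ± 25.8 CPM per kb, SD, n = 12), Mrps21 (174 ± 12.8) and Mrpl30 (155 ± 11.2). The lowest were Mrpl17 (6.91 ± 0.369), Mrps25 (7.52 ± 0.484) and Mrps5 (7.996 ± 0.235). The values of the last 3 rest on long annotated transcripts, 7300 bases for Mrpl17, and a shorter transcript in use would raise them. Mrpl42, a mitochondria-specific protein of the large subunit, stood above Mrps21 by more than the spread between hearts. The mean ± SD ranges of Mrps21 and Mrpl30 overlapped, and Mrps25 and Mrps5 differed by less than the SD of Mrps25.

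Between control hearts of different days, no member passed the main test. Between D15 and D10 controls, 0 of 76 members passed a false discovery rate (FDR) of 0.01 in edgeR's quasi-likelihood test, and DESeq2 called 0. Over all 16318 genes 0.0919% passed. At an unadjusted p under 0.05, 0 members were lower and 1 higher, where 3.24% and 3.45% of all genes were. Between D21 and D10 controls, 0 members and 0.257% of all genes passed. At an unadjusted p under 0.05, 3 members were lower and 1 higher, where 4.68% and 7.52% of all genes were. The 1 higher member in both was Mrps6, a small-subunit protein with a bacterial counterpart, whose log2 difference was 0.50 ± 0.12 (SE, edgeR FDR 0.136) at D15 and 0.52 ± 0.12 (FDR 0.0403) at D21. DESeq2 called it at D21 with an adjusted p of 0.00578. Its level was 25.3 to 26.7 CPM in D10 controls. In D15 controls it was 39.1, 40.6, 37.1 and 28.9 CPM, the lowest in the heart with the low atrial sum. The other members with the largest control differences were Mrps33 (log2 0.21 ± 0.23) and Mrpl54 (-0.16 ± 0.09) at D15, and Mrps18a (-0.27 ± 0.14) and Mrpl54 (-0.23 ± 0.09) at D21, none past the threshold. The D15 value of Mrps33 ran from 0.04 to 0.32 over the alternatives.

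At D10 the members of EAM and control hearts were not separated by the test. In edgeR's quasi-likelihood test 0 of 76 members passed, as did 0 of all 15029 genes tested (0%). The members' median log2 value was -0.10, and that of all genes -0.01. At an unadjusted p under 0.05, 2 members were lower and 1 higher, where 5.54% and 9.71% of all genes were, and 0 members were called by the likelihood ratio test, DESeq2 or limma-voom. The largest differences were those of Mrps6 (log2 0.34 ± 0.08, SE, FDR 0.328), Mrpl44 (-0.25 ± 0.13, FDR 0.366) and Mrps33 (0.25 ± 0.17, FDR 0.445). Over the alternatives they ran from 0.0035 to 0.396 for Mrps6, -0.335 to -0.132 for Mrpl44 and 0.104 to 0.387 for Mrps33. Mrpl44, a large-subunit protein with a ribonuclease III-like fold, stood at 75.6, 76.2, 71.6 and 85.6 CPM in controls and at 49.05, 67.9, 78.9 and 66.4 CPM in EAM hearts. The low value was that of EAM heart 1, the heart with the high leukocyte sum. Its cardiomyocyte marker sum was 26064 CPM, against 40503 to 45606 CPM in the other EAM hearts, and the part of cell content was not tested. In that heart 70 of 76 members lay below all 4 controls, as did 41.8% of all genes, with a member median of 78.5% of the control mean. In EAM heart 3, 1 member lay below all controls and 52 above them, against 29.4% and 33.9% of all genes. EAM hearts 2 and 4 stood between them, at 96.5% and 92.9%. Mrps6 read 29.8, 32.6, 32.9 and 36.7 CPM in EAM hearts, all above the 25.3 to 26.7 CPM of the controls, and the atrial sum was also higher in these hearts (576 to 1865 CPM), whose part in the value was not tested.

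At D15 nearly every mitochondrial ribosomal protein gene fell. The summed level of the 76 members was 4909, 5169.7, 4833 and 5258 CPM in control hearts and 2681, 2455, 3179 and 2451 CPM in EAM hearts. The highest EAM heart lay well below the lowest control. By edgeR's quasi-likelihood test, 73 of 76 members were lower at an FDR under 0.01, where 31.1% of all 15693 genes tested were. Mrpl52 alone was higher, where 33.2% of all genes were, and 2 members did not pass. A fall of at least 2-fold was called for 20 of the 76 members and for 12.9% of all genes. Under total-count scaling it was called for 8 members. The members' median log2 value was -0.86, that is 55.2% of the control level, and that of all genes was 0.02. For 73 members the 4 EAM hearts lay below all 4 controls, which held for 35.9% of all genes.

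**Figure D1:**
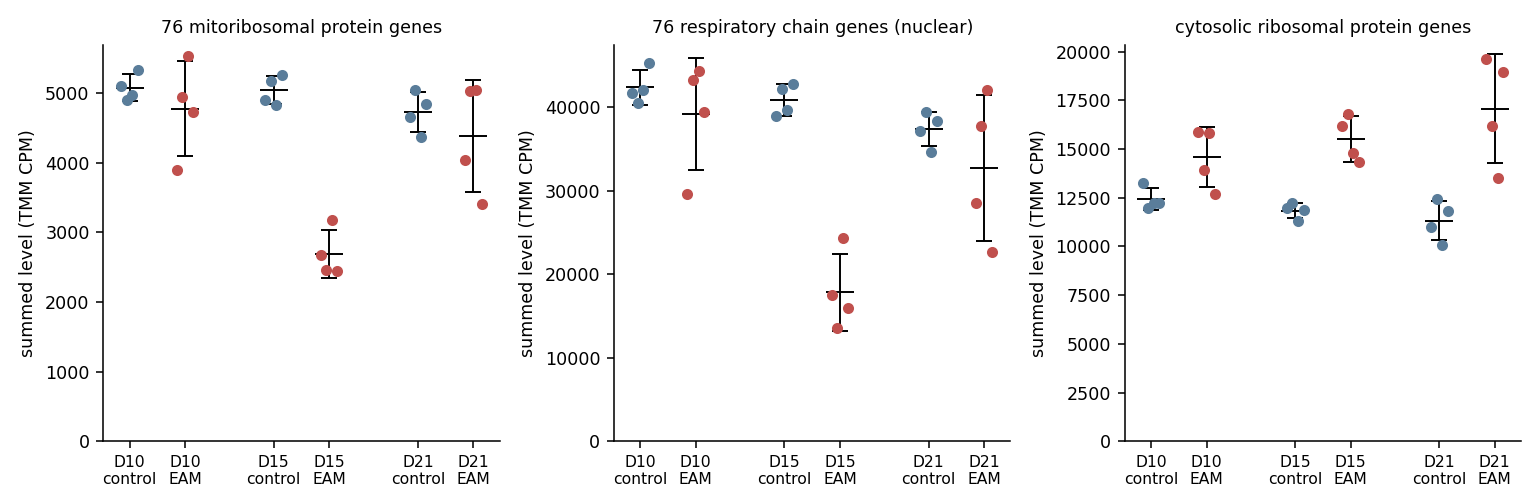
Summed level (TMM-scaled CPM) of the 76 mitochondrial ribosomal protein genes, of 76 nuclear-encoded respiratory chain genes and of the cytosolic ribosomal protein genes, by day and group. Points are hearts (4 per group), bars the mean ± SD. The mitochondrial ribosomal sum falls from 5042 ± 204 to 2692 ± 343 at D15, and at D21 the EAM hearts spread from 3407 to 5050.

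The 5 members that fell most came from both subunits. Mrpl42 read 235, 263, 237 and 255 CPM in D15 controls and 89.4, 68.0, 128 and 82.5 CPM in EAM hearts, a log2 fold change of -1.39 ± 0.17 (SE, edgeR FDR 6.5e-05), or 2.62-fold lower. Mrpl55, a large-subunit protein with a bacterial counterpart, went from 50.3 to 60.2 CPM in controls to 17.3 to 25.9 CPM in EAM hearts (-1.34 ± 0.12). Mrps31 (-1.34 ± 0.16), Mrps35 (-1.32 ± 0.16) and Mrps9 (-1.22 ± 0.14) belong to the small subunit, Mrps9 with a bacterial counterpart and the others without. Mrps31 read 46.5 to 59.1 CPM in controls and 19.0, 17.4, 28.9 and 17.9 CPM in EAM hearts. In all 5 genes EAM heart 3 was the highest of the EAM hearts, and it was also the heart with the lowest leukocyte sum of its group.

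The fall extended over both subunits and both evolutionary origins. Among large-subunit proteins with a bacterial counterpart 28 of 29 fell (median log2 -0.89), and among those specific to mitochondria 19 of 20 fell (-0.90). All 16 small-subunit proteins with a bacterial counterpart fell (-0.71), as did 9 of the 10 specific to mitochondria (-0.85). The quartiles of these groups overlapped, running from -1.06 to -0.57 in the first and from -0.84 to -0.56 in the third. Across the 76 members, the log2 fold change and the mean control level had a Spearman correlation of -0.54, the more abundant members falling more. Transcript length had one of 0.01. Genes of 1 set of libraries are not independent, and these are descriptions.

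**Figure D2:**
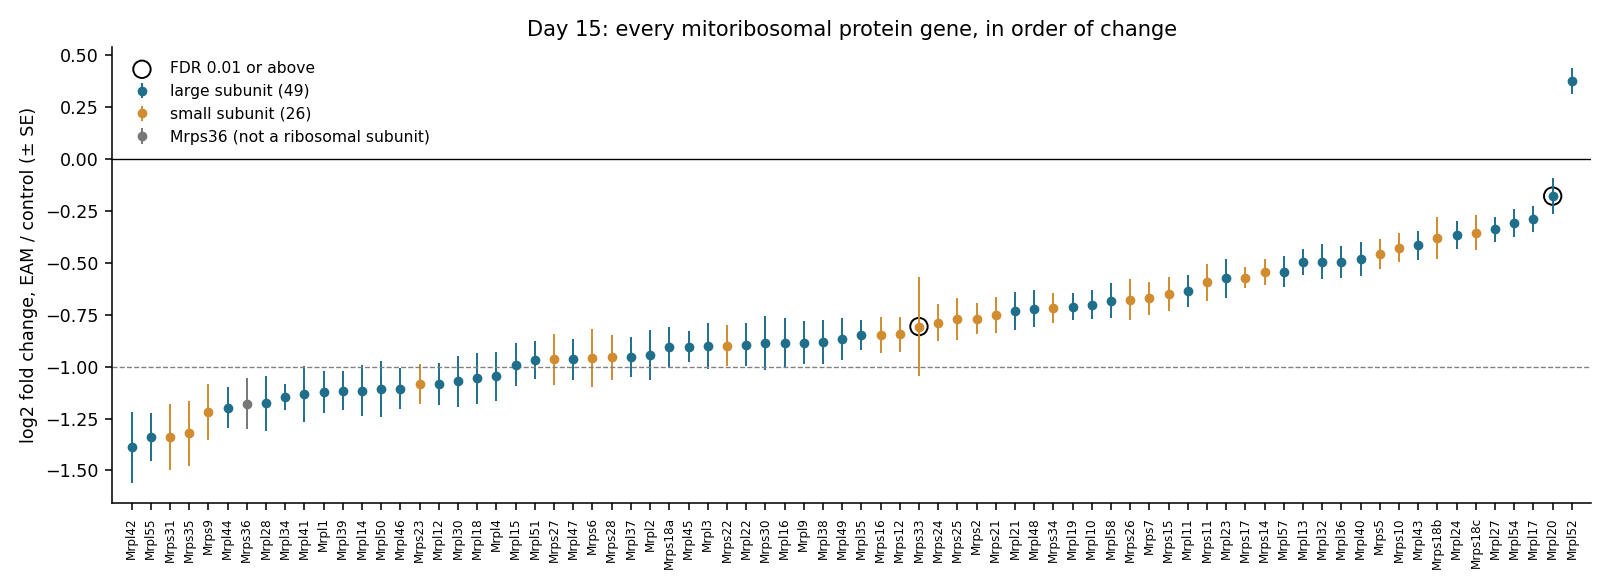
Log2 fold change (EAM over control, ± SE) of each of the 76 members at D15, in order, by subunit. The dashed line marks a 2-fold fall. Values run from -1.39 (Mrpl42) to 0.38 (Mrpl52), and circles mark the 2 members with an FDR of 0.01 or above (Mrps33 and Mrpl20).

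Members with a known special part in the ribosome or in disease followed the group. Mrpl12, of the L7/L12 stalk that recruits translation factors and also a partner of the mitochondrial RNA polymerase, read 156, 159.6, 142 and 167 CPM in controls and 69.9, 67.7, 86.4 and 62.9 in EAM hearts (log2 -1.08 ± 0.10). Mrpl11, at the base of that stalk, fell less (-0.64 ± 0.08), and Mrps12, of the decoding region, fell by 0.84 ± 0.09. Of members mutated in human cardiomyopathy, Mrpl3 went from 96.0 to 98.6 CPM in controls to 43.7 to 63.0 CPM in EAM hearts (-0.90 ± 0.11). Mrpl44 fell by 1.20 ± 0.10 on the log2 scale, and Mrps22 by 0.90 ± 0.10. Mrps16 (-0.85 ± 0.08), Mrps2 (-0.77 ± 0.08) and Mrps34 (-0.72 ± 0.07), each also the site of inherited defects of mitochondrial translation, fell within a narrow range. None of these genes had an EAM heart at or above a control heart.

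The 3 genes named for the bacterial S18 protein had values of different size. Mrps18a, whose protein sits in the large subunit, had a log2 fold change of -0.90 ± 0.10. Mrps18b (-0.38 ± 0.10, FDR 0.0071) and Mrps18c (-0.35 ± 0.09, FDR 0.0041), both small-subunit proteins, had the smaller values, and both lost the call under total-count scaling. With single hearts left out, Mrps18b lost it without D15 control 2 or 4 or EAM heart 1, 2 or 4 (-0.35 to -0.30), and Mrps18c without D15 control 1, 2 or 4 or EAM heart 2, 3 or 4 (-0.34 to -0.28). Mrpl58, a peptidyl-tRNA hydrolase built into the large subunit that rescues stalled ribosomes, fell by 0.68 ± 0.08. Mrpl41 (-1.13 ± 0.13) and Mrps30 (-0.89 ± 0.13), both in the large subunit and both known for reported roles in cell death, also fell. Mrps36, which despite its name is a component of the 2-oxoglutarate dehydrogenase complex, fell from 71.9, 84.2, 72.7 and 85.4 CPM to 32.2, 29.8, 43.0 and 30.4 CPM (-1.18 ± 0.12).

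Besides Mrpl52, which rose, Mrpl20 and Mrps33 did not pass the test and are named here after their values were seen. Mrpl52, a mitochondria-specific protein of the large subunit, rose from a range of 27.4 to 30.4 CPM in controls to 39.7, 36.0, 35.9 and 37.2 CPM (log2 0.38 ± 0.06, SE, edgeR FDR 0.00039). Every EAM heart lay above every control, and the call was lost in a fit of all 24 libraries (FDR 0.0117). Mmp14, a matrix metalloproteinase gene on the same strand, rose by 2.76 ± 0.22 on the log2 scale. It starts at chr14:54431612, downstream of the end of Mrpl52 at chr14:54429756, and the 2 annotations do not overlap. Whether reads running past Mrpl52 entered the count of Mmp14 was not tested. Mrpl20, which also belongs to the large subunit, read 40.1 to 49.4 CPM in controls and 35.3 to 43.0 CPM in EAM hearts, which overlap (-0.18 ± 0.09, FDR 0.091). Mrps33 had a value close to the members' median but varied widely, with 40.2, 31.2, 49.6 and 28.1 CPM in controls and 17.0, 30.5, 19.996 and 15.6 CPM in EAM hearts (-0.81 ± 0.24, FDR 0.0121).

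Markers of cell types moved in the same D15 libraries. All 6 leukocyte markers were higher (median log2 3.98), with a summed level of 1449 to 1902 CPM against 105 to 129 CPM in controls. Of the 12 cardiomyocyte markers 11 were lower (median log2 -1.34), with a sum of 11121 to 27338 CPM against 41397 to 47516 CPM, and no marker of either list was at 0. All 8 monocyte and macrophage markers, 5 neutrophil markers and 7 T cell markers were higher too, as were 3 of 6 fibroblast markers, led by Col1a1 (4.45 ± 0.36). All 6 endothelial markers were lower (median log2 -0.70), among them Cldn5 (-1.46 ± 0.11) and Kdr (-1.24 ± 0.11), and their sum was 669.5 to 731 CPM against 987 to 1319 CPM in controls. In bulk tissue, fewer cardiomyocytes and less message per cardiomyocyte cannot be told apart, and the part of the marker changes in the fall of the members was not tested. Relative to the cardiomyocyte marker sum, the member sum was 10.9% to 11.9% in D15 controls and 16.7%, 22.1%, 11.6% and 14.2% in EAM hearts. That ratio was higher in 3 EAM hearts than in any D15 control and within the control range in EAM heart 3, so that in those 3 hearts the members had fallen less than the markers.

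**Figure D3:**
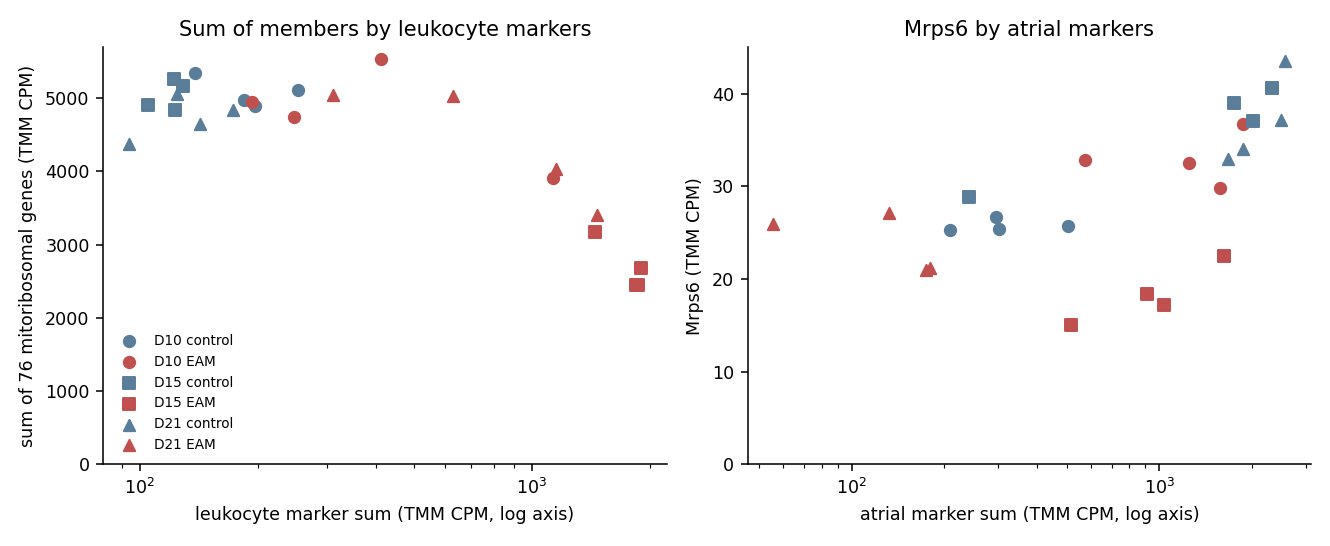
Left, summed level of the 76 members against the summed level of 6 leukocyte markers in each heart. Right, level of Mrps6 against the summed level of 4 atrial genes (CPM, x axes logarithmic, colours and shapes give group and day). The hearts with leukocyte sums above 1000 CPM all have member sums of 4039.7 CPM or less, and in control hearts Mrps6 is 25.3 to 28.9 CPM at atrial sums up to 506 CPM and 33.0 to 43.6 CPM above.

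Other parts of the same machinery fell with the ribosomal proteins at D15. All 5 mitochondrial ribosomal proteins with other names fell (median log2 -0.81), among them Ptcd3 (-1.43 ± 0.16) and Dap3 (-0.87 ± 0.11), a GTP-binding protein of the small subunit. Of 13 translation factors 12 fell (-0.97), including the initiation factor Mtif2 (-1.36 ± 0.11), the elongation factor Tufm (-1.16 ± 0.10) and Taco1 (-1.51 ± 0.15), an activator of cytochrome oxidase translation. Of 20 genes for charging mitochondrial tRNAs 19 fell (-0.75), led by Qrsl1 (-1.44 ± 0.12) and Cars2 (-1.20 ± 0.15). Of 23 assembly factors 20 fell (-0.80), led by the RNA methyltransferases Mettl15 (-1.31 ± 0.16) and Mrm3 (-1.20 ± 0.15). Of 16 genes that maintain and transcribe mitochondrial DNA 14 fell (-0.82), with Tefm (-1.26 ± 0.16), Tfb2m (-1.18 ± 0.14), Tfam (-0.95 ± 0.08) and Polrmt (-0.87 ± 0.10). Both mitochondrial ribosomal RNAs fell, mt-Rnr1 by 1.44 ± 0.24 and mt-Rnr2 by 1.42 ± 0.25, in libraries made from purified mRNA, and 7 of 13 mitochondrially encoded messages fell.

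The nuclear-encoded respiratory chain fell further, and the ribosome of the cytosol moved the other way. All 76 respiratory chain genes were lower at D15, 61 of them at least 2-fold, and their median was -1.15 on the log2 scale. The member sum equalled 12.2% to 12.6% of the respiratory chain sum in D15 controls and 15.3%, 18.1%, 13.1% and 15.4% in EAM hearts, with no overlap. Of 78 cytosolic ribosomal protein genes tested, 64 were higher and 1 lower (median log2 0.45). Rpl3 rose by 1.34 ± 0.13, and the one that fell was its muscle-specific paralog Rpl3l (-2.05 ± 0.42). Both kinds of ribosomal protein genes were fitted in the same libraries under the same scaling.

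Of the regulators known for the genes of mitochondrial biogenesis, 4 of 9 fell and 4 rose at D15, beside 31.1% and 33.2% of all genes. The coactivator Ppargc1a went from 125 ± 13.8 to 44.5 ± 17.6 CPM (SD, n = 4; log2 -1.45 ± 0.24), and the nuclear receptor Esrra fell by 1.01 ± 0.09. Gabpa, the ETS factor that binds many of these promoters, fell by 0.50 ± 0.07. Nrf1, another direct activator of nuclear mitochondrial genes, rose by 0.43 ± 0.06, and Myc, which drives ribosome production in dividing cells, rose by 3.20 ± 0.13. All 9 cell cycle genes rose as well, and which cells carried the Myc message was not tested.

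At D21 the members of EAM hearts were back near the level of controls in the median, with a wide spread between hearts. The summed level was 4653, 5054, 4371 and 4842 CPM in controls and 4039.7, 5031, 5049.7 and 3407 CPM in EAM hearts. EAM hearts 2 and 3 lay in the control range, and hearts 1 and 4 below all controls. Only Mrps6 of the 76 members was lower at an FDR under 0.01 in edgeR's quasi-likelihood test, where 3.10% of all 15266 genes were, and 0 were higher, where 4.71% were. At an unadjusted p under 0.05, 4 members were lower and 6 higher, where 21.2% and 25.2% of all genes were. The median log2 fold change was -0.07, against -0.01 for all genes. The groups did not overlap for 2 members with EAM lower and 2 with EAM higher, against 18.7% and 17.8% of all genes.

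The 2 low D21 hearts were those with the most leukocyte message and the lowest cardiomyocyte marker sums. The leukocyte marker sum was 1156, 631, 312 and 1472 CPM in EAM hearts 1 to 4, and the cardiomyocyte marker sum 27096, 36896, 48173 and 21573 CPM. The median member stood at 85.8%, 108%, 107% and 72.8% of the D21 control mean in the same hearts. In heart 4, 63 of 76 members lay below all controls, against 46.2% of all genes, and in heart 3, 4 members did, against 31.3%. All 6 leukocyte markers were higher in the group, and 0 of 12 cardiomyocyte markers passed the test (sum 21573 to 48173 CPM against 42287 to 44457 CPM). Over the alternatives, 0 to 6 leukocyte markers were higher and 0 to 3 cardiomyocyte markers lower. The part of cell content in the values of the members was not tested. With this spread the test could have missed changes of moderate size, and a member that did not pass is not shown to be unchanged.

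Mrps6 and Mrpl52 were the members that differed most at D21. Mrps6 read 34.01, 43.6, 37.2 and 33.0 CPM in controls and 21.2, 25.99, 27.1 and 21.0 CPM in EAM hearts, without overlap (log2 -0.61 ± 0.12, SE, edgeR FDR 0.0097). Leaving out D21 control 1, 2, 3 or 4 or EAM heart 1, 2 or 4 ended the call, with values of -0.68 to -0.54. In all, the call was lost in 12 of 21 alternatives. Among them were limma-voom, DESeq2 size factors, upper-quartile scaling and no filter. All 4 atrial genes were lower in the same comparison (median log2 -7.02). The adipocyte markers had medians of -6.33 to -3.67 over the settings, with 0 to 3 of them called lower. Against the 4 D10 controls and D15 control 4, which had low atrial sums and Mrps6 levels of 25.3 to 28.9 CPM, the D21 EAM hearts partly overlapped. Mrps6 shares its start region and strand with Slc5a3, a myo-inositol transporter gene, which fell from 8.86 to 13.3 CPM in controls to 4.14 to 6.81 CPM (-1.04 ± 0.19, FDR 0.0081). At D15 the pair differed, with Slc5a3 at -0.22 ± 0.20 and Mrps6 at -0.96 ± 0.14. Whether atrial content or shared reads had a part in the value of Mrps6 was not tested. Mrpl52 read 27.5, 29.8, 24.8 and 28.9 CPM in controls and 44.1, 39.7, 31.6 and 48.1 CPM in EAM hearts, with all EAM hearts above the controls (0.58 ± 0.14, FDR 0.0186). In these hearts the level of Mrpl52 followed the order of the leukocyte sum, from 31.6 CPM in heart 3 to 48.1 CPM in heart 4. At D10 it read 42.9 and 42.3 CPM in EAM hearts 1 and 3, which had the highest leukocyte sums of that group, and 30.3 and 31.5 CPM in hearts 2 and 4, against 30.1 to 32.6 CPM in controls. The order did not hold at D15, where heart 2 (leukocyte sum 1868 CPM) read 36.0 CPM and heart 4 (1841 CPM) 37.2 CPM, nor across days, since D15 hearts 1, 2 and 4 had the highest leukocyte sums of all hearts (1841 to 1902 CPM) and at most 39.7 CPM of Mrpl52. The part of leukocyte message in the level of Mrpl52 was not tested. For D21 it is named here after its value was seen, as is Mrpl20, which had no overlap with EAM higher (0.28 ± 0.10, FDR 0.0593).

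None of the lists of the same machinery had a gene past the threshold of the main test at D21. Under the alternatives, up to 12 of 20 tRNA charging genes, 10 of 23 assembly factors and 5 of 13 translation factors were lower. Up to 9 of 16 genes for mitochondrial DNA and RNA were lower, with a list median between -0.32 and -0.16 over the settings. Up to 7 of 76 respiratory chain genes, 2 of 5 ribosomal proteins with other names and 2 mitochondrially encoded messages were lower. So were up to 2 mitochondrial ribosomal RNAs, with a median between -0.57 and -0.21. These are maxima over the settings, and the share of all genes in each is not given here. The medians were -0.24 for translation factors, -0.27 for tRNA charging, -0.23 for assembly factors, -0.12 for the nuclear-encoded respiratory chain and -0.16 for the ribosomal proteins with other names, by edgeR's quasi-likelihood test. At an unadjusted p under 0.05, 4 of 13, 9 of 20, 7 of 23, 1 of 76 and 1 of 5 were lower, beside the 21.2% of all genes. Gabpa (-0.48 ± 0.08, FDR 0.00723) was still lower, and Ppargc1a was at -0.74 ± 0.31 (FDR 0.0947). Of the cytosolic ribosomal protein genes 6 were higher, with a median of 0.64.

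**Figure D4:**
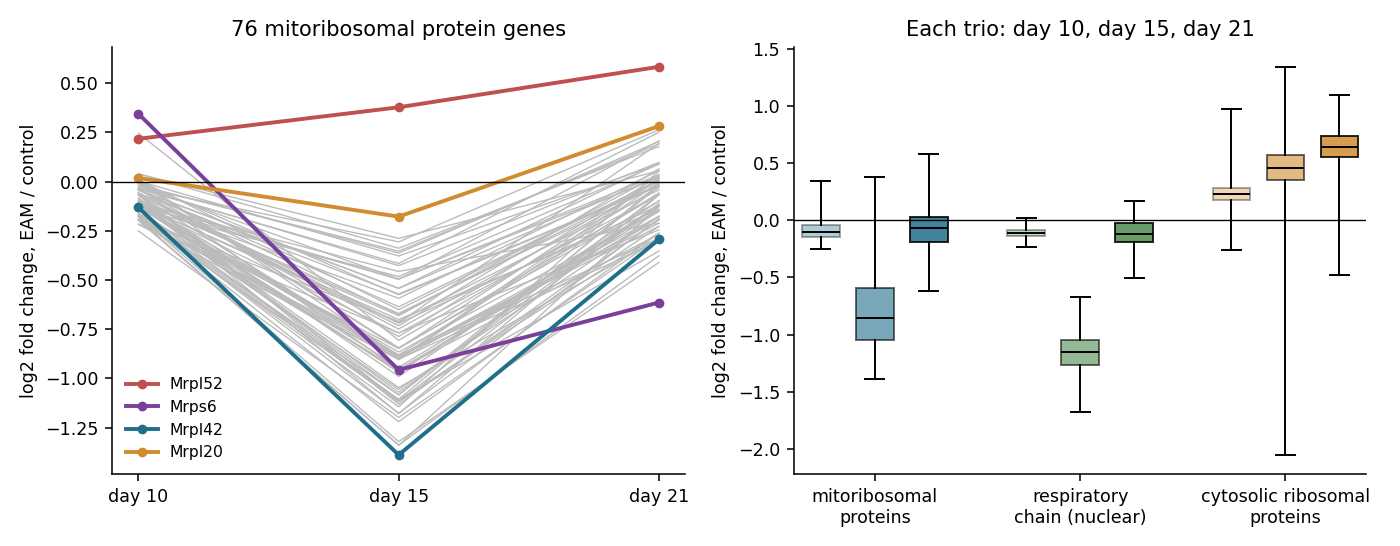
Left, log2 fold change (EAM over control) of each member on the 3 days, with Mrpl52, Mrps6, Mrpl42 and Mrpl20 in colour. Right, the same quantity as boxes (median, quartiles and full range) for the members, the nuclear-encoded respiratory chain and the cytosolic ribosomal proteins. The member medians are -0.10, -0.86 and -0.07, and 75 of 76 members have their lowest value at D15.

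The change of the EAM effect between days was tested directly in a fit of all 24 libraries, in which both differences share the D15 hearts. From D10 to D15, 67 of 76 members had a lower EAM effect at an FDR under 0.01, where 16.7% of all 16318 genes did, with a median log2 difference of -0.79. The largest were those of Mrps6 (-1.35 ± 0.18, SE, FDR 0.000774), which had been above controls at D10, Mrpl42 (-1.31 ± 0.27) and Mrpl55 (-1.20 ± 0.24). From D15 to D21, 63 members had a higher EAM effect, where 8.47% of all genes did, with a median of 0.74. Mrpl55 (1.23 ± 0.24), Mrpl34 (1.22 ± 0.21) and Mrps36 (1.13 ± 0.24) led here. Mrpl34 read 26.4 to 31.1 CPM in D15 EAM hearts and 62.0, 75.2, 70.9 and 41.8 CPM in D21 EAM hearts, against 52.5 to 68.8 CPM in D21 controls. Mrps6 was not among the 63 (0.36 ± 0.18, FDR 0.126). With a replicate block the count of 63 became 4, and Mrpl55, Mrpl34 and Mrps36 did not pass (1.11 to 1.21, FDR 0.0103 to 0.0134). The count moved to between 38 and 70 when single hearts were left out. It was lowest without D21 control 3 (38), D15 EAM heart 4 (39), D21 EAM heart 2 (40) or D15 control 2 (41). The shares of all genes under the block or without single hearts are not given here, so these counts cannot be set against them.

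Many of these genes share a start region with another gene. Of the 76 members 23 (30.3%) had a protein-coding neighbour on the opposite strand whose start lay within 1000 bases and which pointed away, against 10.8% of the 13980 protein-coding genes tested at D15. Of the 22 neighbours tested at D15, 7 fell, 7 rose and 8 did not pass, shares near those of all genes (31.1% lower and 33.2% higher), and the median of their log2 fold changes was 0.07. Mrpl49 fell by 0.87 ± 0.10 while Fau, which encodes a cytosolic ribosomal protein and starts 59 bases away, rose by 0.84 ± 0.08. Mrpl57 (-0.54 ± 0.07) starts 49 bases from Ska3, a spindle gene that rose by 2.02 ± 0.27, and Mrpl27 (-0.34 ± 0.06) starts 197 bases from Eme1, a DNA repair gene of low level (0.156 to 0.765 CPM in D15 controls) that rose by 2.35 ± 0.41. Among the neighbours that fell were Ndufs6, a complex I subunit next to Mrpl36 (-1.33 ± 0.19), and Sars2, a mitochondrial tRNA synthetase next to Mrps12 (-0.73 ± 0.12). These 5 neighbours were chosen after their values were seen.

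**Figure D5:**
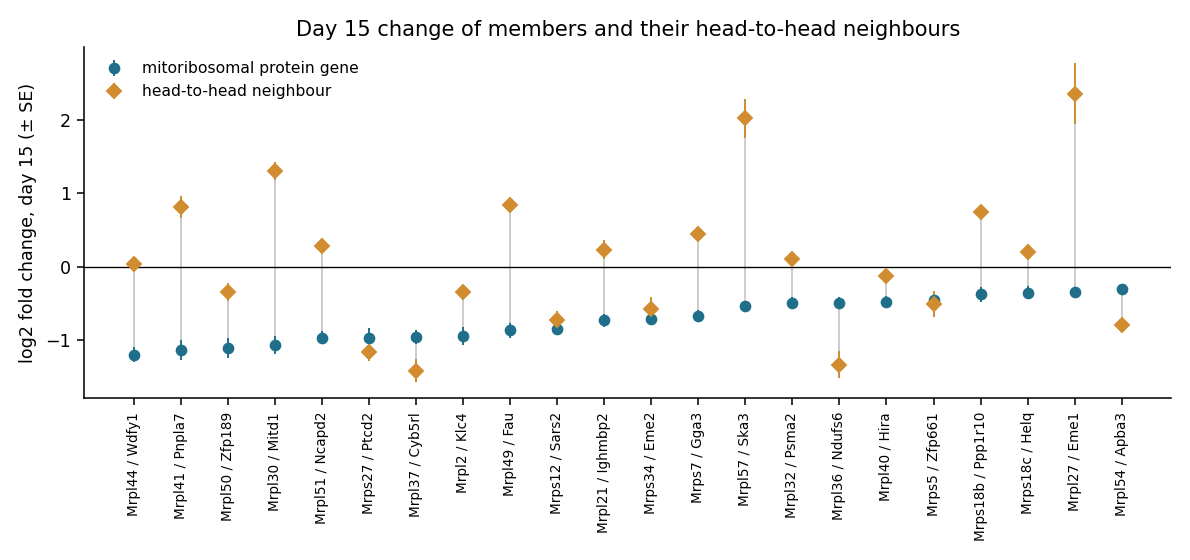
Log2 fold change at D15 (± SE) of the 22 members with a tested head-to-head neighbour (circles) and of that neighbour (diamonds), in order of the member's value. All 22 members lie below 0, whereas the neighbours run from -1.42 (Cyb5rl) to 2.35 (Eme1).

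Promoter sequences of 67 members were at hand from RefSeq (GRCm38.p6, 250 bases before to 50 after the start). They were searched on both strands for 3 short sequences bound by known activators of such genes, CCGGAAG (ETS factors such as GABPA), GCATGCGC (NRF1) and AAGATGGC (YY1). The ETS letters were present in 24 of 67 members (35.8%), against 18.5% of the 10959 genes tested at D15 with a promoter and 8.86% of all promoters in the table. The NRF1 letters were present in 7 (10.4%, against 5.62% and 2.71%), and the YY1 letters in 12 (17.9%, against 4.85% and 2.75%). At least 1 was present in 36 members. Promoters of 4 members are shown because they carry such letters close to the start while their genes moved differently at D15. They run from 100 bases before to 30 after the start, on the strand of the gene, with matches in capitals:
Mrpl34: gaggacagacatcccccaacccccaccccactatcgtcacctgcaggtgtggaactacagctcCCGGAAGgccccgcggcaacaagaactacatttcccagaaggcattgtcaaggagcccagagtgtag
Mrps22: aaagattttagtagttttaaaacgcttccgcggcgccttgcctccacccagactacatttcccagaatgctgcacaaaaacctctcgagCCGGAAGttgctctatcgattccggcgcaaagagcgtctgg
Mrpl52: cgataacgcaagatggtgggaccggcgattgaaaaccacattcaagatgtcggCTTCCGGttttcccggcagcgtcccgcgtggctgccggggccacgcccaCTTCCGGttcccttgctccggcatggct
Mrpl17: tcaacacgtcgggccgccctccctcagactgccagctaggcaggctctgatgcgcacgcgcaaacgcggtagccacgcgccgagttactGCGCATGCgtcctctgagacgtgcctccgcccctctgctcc

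The windows are chr8:71464826-71464955 (plus strand) for Mrpl34, chr9:98601650-98601779 (minus) for Mrps22, chr14:54426809-54426938 (plus) for Mrpl52 and chr7:105811058-105811187 (minus) for Mrpl17. The ETS letters begin 37 bases before the start in Mrpl34, which fell by 1.14 ± 0.06, and 11 bases before it in Mrps22, which fell by 0.90 ± 0.10. In Mrpl52, which rose, they occur 2 times on the opposite strand, the first beginning 47 bases before the start. Mrpl17, with the NRF1 letters on the opposite strand 11 bases before the start, had the smallest fall that passed the test (-0.29 ± 0.06). Its searched promoter also holds the ETS letters, outside the stretch shown. Over the members, the median D15 value was -0.78 with the ETS letters and -0.89 without, -0.70 with and -0.86 without the NRF1 letters, and -0.85 with and -0.88 without the YY1 letters. A match of letters is a description and shows neither binding nor its absence.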

How the data were processed

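Hearts were profiled by RNA sequencing of purified mRNA with a directional library kit. Per the study's methods and the submitters' processing notes, the authors aligned reads to GRCm38 with HISAT2 2.0.4, removed duplicates with Picard and assigned reads to Ensembl features with featureCounts. The sources used here do not give the strand setting, so reads of overlapping genes (36 members overlap another gene of the table) may not be separated. The deposited values are raw counts per gene, and the files of single libraries held the same counts as the full table. The 92 spike-in rows were at 0 and left out. Symbols, types and lengths came from GENCODE M21.

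Genes with at least 10 counts in at least 4 of the libraries compared were kept, scaled by TMM and tested with edgeR 4.0.16 (quasi-likelihood test, Benjamini-Hochberg over all genes kept), per day on 8 libraries. Differences of the EAM effect between days and control hearts of different days were tested in 1 fit of all 24 libraries. "Passed", "rose" and "fell" mean an FDR under 0.01. SE is the absolute log2 fold change divided by the root of the F statistic. The test was checked on simulated counts. Levels are TMM-scaled CPM over all 24 libraries, and lengths are those of the principal transcript.

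Named members were the 5 largest changes past the threshold in each direction per day (3 for other comparisons, or the 3 largest where none passed), the 3 highest and lowest levels per kilobase, and a list chosen by role. From the other lists, the 2 largest changes at D15 and a fixed list of regulators were named. The members and lists were chosen with earlier results of these data known. Alternatives were DESeq2 1.42.0, limma-voom 3.58.1, the likelihood ratio test, other scalings, no filter, all 12 controls, a replicate block and single hearts left out.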

Additional observations from a re-analysis of the deposited data

Results flagged for a closer look

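The EAM effect on the members differed between days when the difference itself was tested in edgeR's quasi-likelihood fit of all 24 libraries. From D10 to D15 it was lower for 67 members, with the largest log2 differences in Mrps6 (-1.35, FDR 0.000774), Mrpl42 (-1.31, FDR 0.00209) and Mrpl55 (-1.20, FDR 0.00193). From D15 to D21 it was higher for 63 members, led by Mrpl55 (1.23, FDR 0.00192), Mrpl34 (1.22, FDR 0.00115) and Mrps36 (1.13, FDR 0.00319). That count was 38 without D21 control 3, 39 without D15 EAM heart 4, 40 without D21 EAM heart 2 and 41 without D15 control 2, and 4 with a replicate block. The shares of all genes in these settings are not given here.

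Single hearts stood apart from the other 3 of their group in 8 of 192 sets of 4 values (31 named members and the member sum in 6 groups), by a gap-to-range ratio above Dixon's critical value, which flags about 1 in 20 sets by chance, or 9.6 here. In EAM groups these were Mrps31 in D10 heart 1 (34.8 CPM against 49.9 to 51.3), Mrps31 in D15 heart 3 (28.9 against 17.4 to 19.0) and Mrpl17 in D10 heart 3 (63.8 against 48.96 to 51.3). In control groups they were Mrps36 in D10 heart 4 (86.7 against 69.5 to 71.9), Mrps25 in D10 heart 3 (45.4 against 47.4 to 47.6), Mrpl52 in D15 heart 3 (27.4 against 29.99 to 30.4), Mrpl44 in D21 heart 2 (77.3 against 70.5 to 71.6) and Mrps5 in D21 heart 3 (34.95 against 36.4 to 36.6).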

How the results depend on the processing

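At D15 the count of members lower stayed between 67 and 74 in every setting, and 20 of 23 named members kept their side of the threshold throughout (the others were Mrpl52, Mrps18b and Mrps18c). Total-count scaling, which moved the median of all genes at D15 to 0.17, gave a member median of -0.71 with 8 members at least 2-fold lower, and a median of 0.58 for D21 minus D15. Relative to that shift the D15 members stood at -0.88. It also moved the split of all genes from 1529 higher and 2733 lower to 1823 and 2092 for D15 minus D10, and from 1382 and 598 to 906 and 985 for D21 minus D15. The fit of all 24 libraries gave 0 members higher at D15 and 1 at D21. At D21 the count of members lower was 0 with limma-voom, DESeq2 size factors, upper-quartile scaling or no filter, and 0 to 1 with single hearts left out. The count higher was 1 with the likelihood ratio test, with DESeq2 and at an FDR under 0.05, an alternative chosen after seeing the data, and 0 to 1 with hearts left out. With all 12 control hearts it was 11 lower and 2 higher, and the cause was not tested. The share of all genes at D21 in that setting is not given here. At D10 the same setting gave 1307 of all 15545 genes higher and 612 lower, where the main test gave 0. DESeq2 called 1 member higher in D21 against D10 controls. Leaving out single hearts moved the 63 members higher from D15 to D21 to between 38 and 70.

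The labels do not say that replicate numbers pair hearts, and not every pair's deviations correlated above 0.1: 2 of 4 pairs of same-numbered EAM and control hearts did at D10, 0 at D15 and 3 at D21. Those 2 D10 and 3 D21 hearts also correlated best with their own number, so that some pairing at D10 and D21 is possible. The D10 values were 0.368 and 0.368, with the other 2 pairs at -0.077 and -0.083. The D21 values were 0.177 to 0.303, with the other pair at 0.0966. With the replicate block the counts were 70 lower at D15, 1 lower at D21, 55 for D15 minus D10 and 4 for D21 minus D15, and Mrps18b and Mrps18c no longer passed at D15. The shares of all genes with the block are not given here, so a change in the members alone cannot be read from these counts. Groups of 4 hearts, and the spread among D10 and D21 EAM hearts, limit what smaller changes could be seen.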
